A study of Melitaea cinxia with 174 samples.

Results

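Expression in the thorax of males was compared with that of females in the Glanville fritillary butterfly (Melitaea cinxia) from Saaremaa (SA), a large Estonian island where the habitat is continuous. All individuals labelled SA were used, 35 labelled male and 28 labelled female, which together were 63 of the 174 individuals of the series. The other individuals came from the populations labelled AL, OL and UP. Diapausing larvae were taken from the field in autumn, overwintered in the laboratory, reared one by one on Plantago lanceolata in a common garden and kept for 3 days as adults, and a single larva of each family was sequenced. Males and females of SA shared this history and carried no treatment, so that each library was 1 individual and the spread between libraries was the spread between butterflies of different families. Egg load and flight before sampling were not analysed here.

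In butterflies females carry a Z and a W sex chromosome and males carry a pair of Z chromosomes, so that W genes are read only in females and Z genes have a larger copy number in males. The adult thorax is filled mostly with flight muscle, whose fibres are packed with mitochondria that burn carbohydrate and fat in flight, and it holds in addition fat body, cuticle, nerve and gut. Males and females of the Glanville fritillary use flight differently: males search for or wait for mates, and females carry eggs and look for host plants. The gene models were not placed on chromosomes here, so Z and W linkage were not analysed.

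The total count was 442717 in the lowest male library, 1847780 in the median and 5153730 in the highest. In females the lowest, median and highest totals were 708877, 2011100 and 6654943. The difference of the means, males minus females, was -554240 counts and lay within the spread between individuals (p = 0.181, permutation test with 100000 permutations, 2-sided). No pair among the 1953 pairs of SA libraries was alike enough to be a repeat of 1 library (lowest chi-square per degree of freedom 8.32 over 4848 genes).

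The sex labels were checked with genes chosen outside SA. The 50 genes higher in males and the 50 genes higher in females with the lowest p in the other 3 populations gave a sex score for each SA individual, the mean log2 CPM (counts scaled to a common library total) of the first set minus that of the second. The score was 4.31, 4.97 and 5.35 in the lowest, median and highest SA male, and 1.23, 2.09 and 4.78 in the lowest, median and highest SA female. All 35 males scored as their label says. The library labelled female, replicate 6, had the 4.78 and lay inside the male range, while the other 27 females lay between 1.23 and 2.68. This library was kept under its label in all tests, and the counts of genes and of list members were also computed without it.

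**Figure D1:**
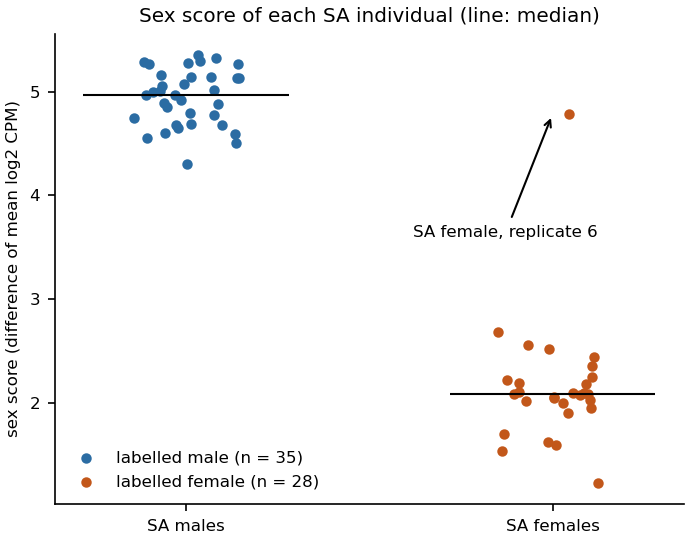
Sex score of each SA individual (difference of mean log2 CPM), males left and females right, with 1 point per individual and a line at the median. The 35 males sit between 4.31 and 5.35 and 27 of the 28 females between 1.23 and 2.68, and the arrow marks the library labelled female, replicate 6, at 4.78.

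Of the 5838 genes with enough counts, 1035 (17.7%) differed between SA males and SA females at FDR<0.05 (edgeR quasi-likelihood F-test with Benjamini-Hochberg adjustment). 546 genes (9.35%) were higher in males and 489 (8.38%) were lower. The changes upward had a median log2 fold change, males over females, of 0.70, and those downward of -0.53, while the median over all genes tested was -0.01. Changes above 1 on the log2 scale were found in 135 genes higher and 60 genes lower in males. Above 2 the balance was the other way, with 6 genes higher and 14 lower. Without the library labelled female, replicate 6, 1096 of 5840 genes (18.8%) differed, 581 higher (9.95%) and 515 lower (8.82%) in males, and these held 536 of the 546 and 481 of the 489. Only 149 of the 1035 had a description in the study's supplementary tables, of 932 described genes tested. Because those tables list mostly genes that the study chose from these same libraries for other contrasts, the described genes are not an even sample of the genome.

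**Figure D2:**
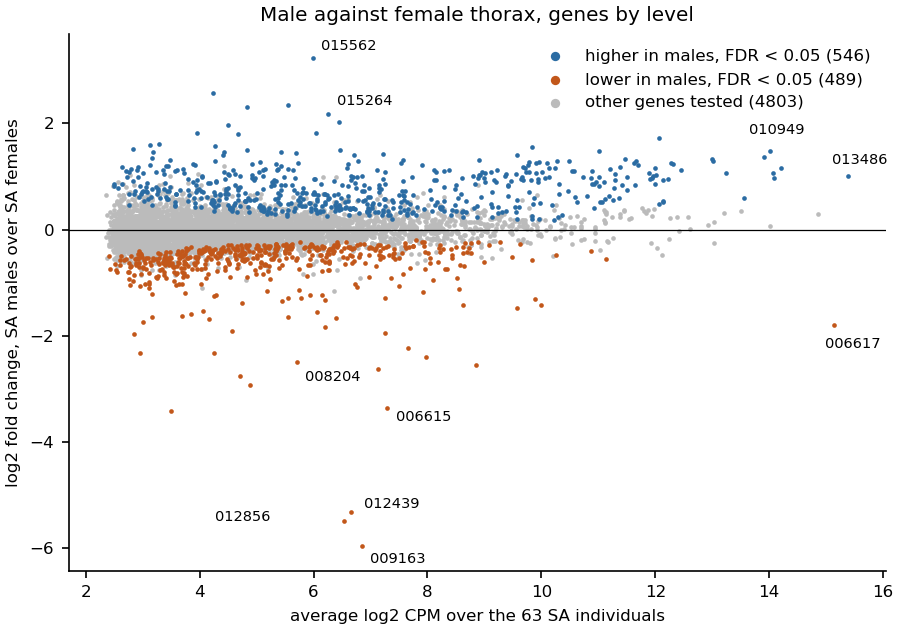
Log2 fold change of SA males over SA females (y axis) against the average log2 CPM over the 63 SA individuals (x axis), with 1 point per gene tested and the last 6 digits of the identifier beside 10 genes. The 546 genes higher in males at FDR<0.05 spread over the whole range of levels, 6 of them above 2, and among the 489 lower in males 3 genes lie below -5.

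The largest differences were in genes with few or no reads in males. Here and below, the values of each sex are the lowest, the median and the highest individual. MCINX009163 had 0, 3.15 and 11.5 CPM in males, against 8.35, 126 and 2589 CPM in females. The lowest of those females was the library labelled female, replicate 6, and the other 27 began at 26.5 CPM, above every male. The log2 fold change of MCINX009163 was -5.98 (SE 0.42, FDR = 1.08e-18), and -5.36 without female replicate 5, which had the highest value. MCINX012439 had 0, 4.72 and 13.7 CPM in males, against 8.59, 197 and 481 CPM in females (log2 fold change -5.33, SE 0.25, FDR = 2.21e-27). MCINX012856 had 0, 3.06 and 15.6 CPM in males, against 6.92, 149 and 704 CPM in females (log2 fold change -5.50, SE 0.32, FDR = 4.30e-23). In both genes the only female level within the male range was again that of replicate 6, and the other females began at 51.2 CPM for MCINX012439 and at 26.6 CPM for MCINX012856. None of these 3 genes has a description.

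With all 63 libraries, 0 of the 5838 genes (0.0%) had ranges of males and females that did not overlap. Without replicate 6, the ranges did not overlap in 6 of 5840 genes (0.103%), 5 higher in females (0.0856%) and 1 higher in males (0.0171%). The 5 were the genes above together with MCINX006615 and MCINX006612. MCINX006615 had 7.64, 26.6 and 73.9 CPM in males, against 24.3, 306 and 578 CPM in females, where the other 27 females began at 162 CPM (log2 fold change -3.37, SE 0.18, FDR = 3.28e-24). MCINX006612 had 50.03, 123 and 356 CPM in males, against 199, 731 and 2363 CPM in females, where the other 27 began at 381 CPM (log2 fold change -2.55, SE 0.19, FDR = 1.75e-17). The single gene higher in males was MCINX015264, also without a description. It had 39.6, 105 and 233 CPM in males, against 4.86, 19.6 and 134 CPM in females, and the 27 females other than replicate 6 reached 33.5 CPM. Its log2 fold change was 2.18 (SE 0.20, FDR = 5.12e-14), or 2.44 without replicate 6. In all 6 genes the value of replicate 6 lay inside the male range.

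**Figure D3:**
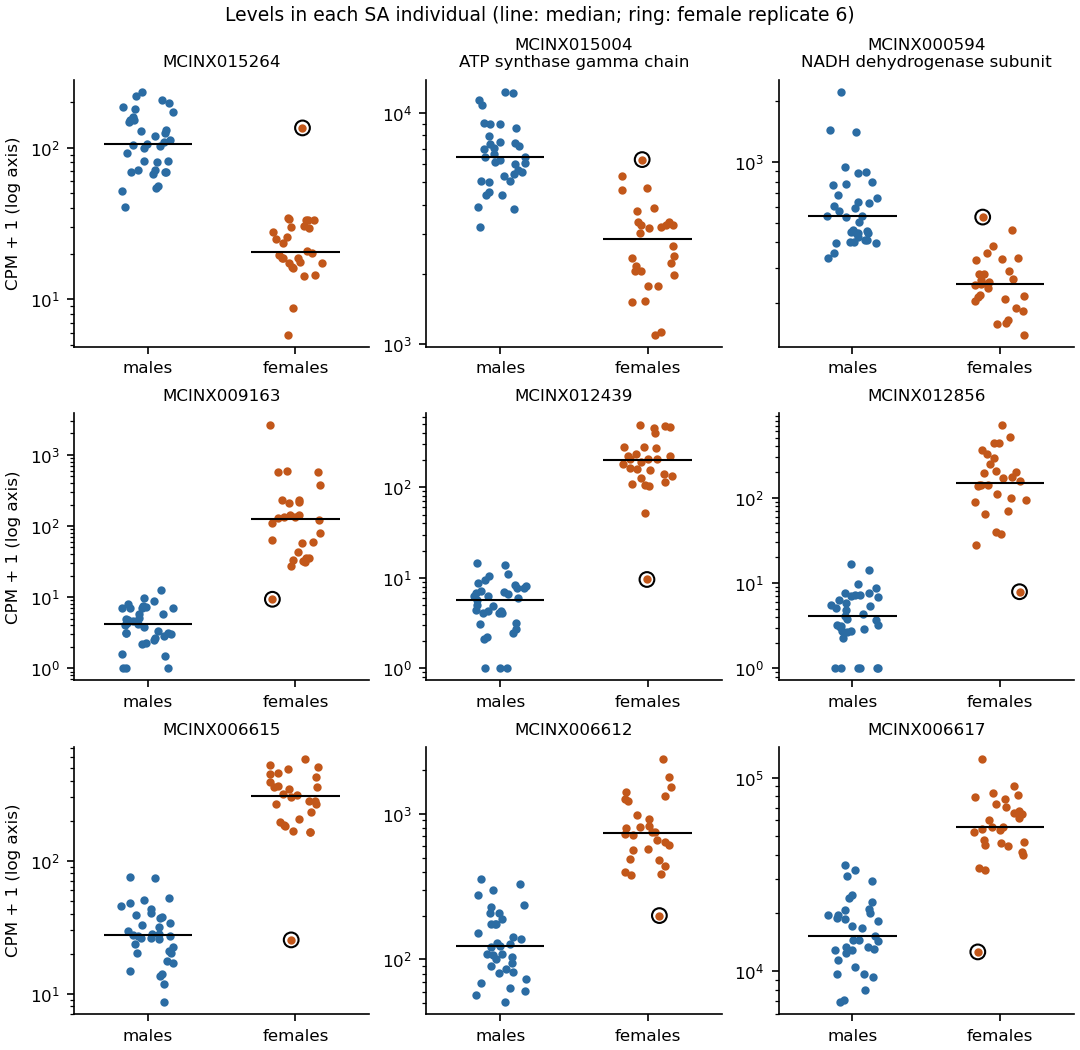
CPM + 1 (log axis) of 9 genes in each SA individual, males left and females right in each panel, with a line at the median and a ring around the library labelled female, replicate 6. In the 3 panels at the top males are higher, in the other 6 females are higher, and the ringed library lies near or within the male points in each panel.

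Calls of the same direction came in runs of tested models with consecutive numbers, which were looked for after the values had been seen, and whether such models are neighbours on a scaffold was not analysed here. The longest run, from MCINX006610 to MCINX006619, held 7 tested models, all lower in males, with log2 fold changes from -3.37 to -1.64. It holds MCINX006612 and MCINX006615 described above, and MCINX006617, the gene whose share of the counts differed most between the sexes. Another run, from MCINX014910 to MCINX014914, held 4 models lower in males by -2.41 to -1.56. The runs MCINX000751 to MCINX000757, MCINX007185 to MCINX007190, MCINX008813 to MCINX008816 and MCINX012927 to MCINX012931 each held 4 models higher in males. Their log2 fold changes lay between 0.39 and 1.27. The run from MCINX008125 to MCINX008136 held 6 models lower in males by -0.44 to -0.34, and the run from MCINX009350 to MCINX009362 held 5 models higher in males by 0.33 to 1.18. Of the 546 genes higher in males, 92 (16.8%) were followed by a tested model that was also higher in males, against 9.35% of all genes. Of the 489 genes lower in males, 67 (13.7%) were followed by one that was also lower, against 8.38% of all genes. Reads shared between models that overlap were not tested for.

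MCINX006617 was among the genes with most reads in the thorax. It took 0.691%, 1.36% and 3.22% of the counts of males, against 1.12%, 6.24% and 12.3% of the counts of females. The 1.12% was the library labelled female, replicate 6, and the sexes overlapped at their edges. The log2 fold change was -1.79 (SE 0.15, FDR = 1.07e-15). MCINX013486 took 2.95%, 4.99% and 7.01% of the counts of males, against 1.63%, 3.01% and 4.25% of those of females, and the highest female was again replicate 6 (log2 fold change 1.0045, FDR = 2.37e-11). Neither gene has a description. Among the other genes that took a larger share in males were MCINX001600, with medians of 1.81% in males and 0.844% in females, and MCINX010949, with 1.84% in males and 0.713% in females. These 4 were chosen from the genes with large differences in share after the values had been seen. MCINX002713, with medians of 2.14% in males and 1.26% in females, also differed and was not among them.

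The share of calls higher in males differed with the level of the gene. Level is here the average log2 CPM, which is not divided by gene length because the reads were anchored at the polyA tail. Among the 2214 genes under 4, 3.75% were higher in males and 6.59% lower. Among the 972 genes from 6 to 8 the shares were 14.3% higher and 11.7% lower, and among the 364 genes from 8 to 10 they were 25.8% higher and 10.4% lower. Of the 151 genes at 10 or more, 76 (50.3%) were higher in males and 4 (2.65%) were lower, with a median log2 fold change of 0.39 over the 151. The 4 were MCINX006617, MCINX004068, MCINX015213 and MCINX003439, named here after their values were seen.

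**Figure D4:**
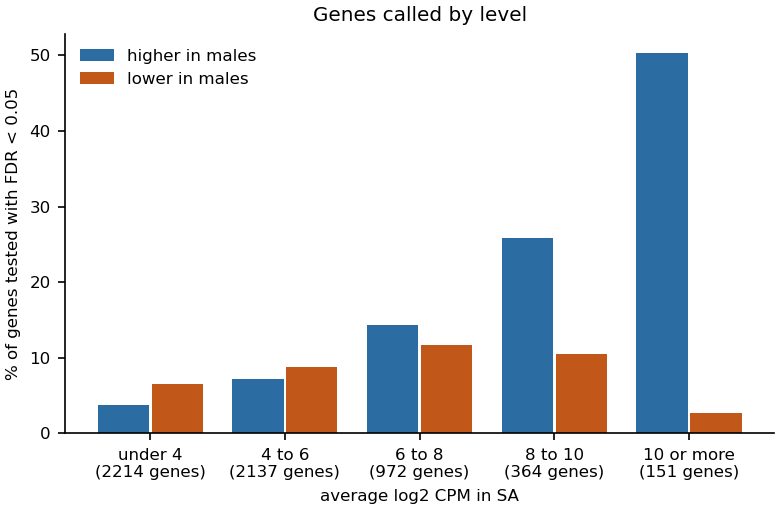
Share of the tested genes in each class of average log2 CPM that were called at FDR<0.05, with bars for genes higher in males on the left and lower in males on the right. The share higher in males increases from 3.75% under 4 to 50.3% at 10 or more, while the share lower in males lies between 2.65% and 11.7%.

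The 546 genes higher in males took 46.5 ± 3.73% of the counts of males (SD, n = 35) and 29.6 ± 4.598% of those of females (SD, n = 28). The 489 genes lower in males took 4.69 ± 0.635% of the counts of males and 12.7 ± 2.30% of those of females. These shares describe sets that were chosen by the same contrast, and carry no test. The scaling factor (TMM), by which edgeR corrects each library for such differences in composition, was 0.917 ± 0.121 in males and 1.13 ± 0.100 in females (SD), lower in males by 0.213 (p = 1e-05, the smallest that 100000 permutations can give, 2-sided). The 10 most abundant genes of each library took 22.9 ± 2.61% of the counts in males and 22.2 ± 2.55% in females (SD, p = 0.299, permutation test). With library totals alone in place of TMM, the median log2 fold change of all genes shifted to -0.32 and the calls became 272 higher and 2387 lower in males (10.2% of calls higher, against 52.8% with TMM). All directions given here are relative to the TMM scale. Of the 58 genes named by the rule and called, 8 lost the call on library totals alone with the direction kept. Another 2, MCINX012995 and MCINX013002, changed direction there and were not called (FDR = 0.754 and 0.309). With the TMM factor as a covariate 18 lost the call. The 18 were 10 given with those values below and MCINX000061, MCINX000474, MCINX001048, MCINX005297, MCINX005622, MCINX009508, MCINX012995 and MCINX013002.

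Genes of oxidative phosphorylation had the largest share of calls among the 17 lists counted. Of 19 listed members of the respiratory chain, ATP synthase and citric acid cycle, 12 passed the filter, and 7 rose in males (58.3%, against 9.35% of all genes tested) and 0 fell, with a median log2 fold change of 0.84 (all genes tested, -0.013). Of the 12, 8 had an average log2 CPM under 8 and 3 of these rose (37.5%), and the 4 at 8 or more all rose, in classes where 25.8% and 50.3% of all genes were higher in males. The respiratory complexes pump protons out of the mitochondrial matrix, and ATP synthase lets them back to make ATP. MCINX015004, the gamma chain that forms the turning stalk of ATP synthase, had 3189, 6457 and 12358 CPM in males, against 1094, 2835 and 6282 CPM in females. The highest female was replicate 6, but other females also lay within the male range. The log2 fold change was 1.23 (SE 0.14, FDR = 1.40e-10).

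Coupling factor 6 (MCINX008601), which belongs to the stator of ATP synthase, had 568, 1289 and 3791 CPM in males, against 400, 572 and 1718 CPM in females (log2 fold change 0.97, SE 0.15, FDR = 5.75e-07). ATP synthase subunit beta (MCINX014243), the catalytic subunit, was read far less often, with 1.12, 6.11 and 39.8 CPM in males and 0, 2.89 and 12.97 CPM in females (log2 fold change 1.08, SE 0.26, FDR = 0.00168). The sexes overlapped widely in this gene. With the TMM factor as a covariate, MCINX008601 was 0.34 (FDR = 0.147) and MCINX014243 0.77 (FDR = 0.162) on the log2 scale, and neither was called.

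NADH dehydrogenase alpha subunit 6 (MCINX000594), an accessory subunit of complex I, had 334, 539 and 2218 CPM in males, against 139, 249 and 533 CPM in females. All females lay under the male median, the highest being replicate 6, and the other females reached 459 CPM (log2 fold change 1.31, SE 0.15, FDR = 1.99e-10). Cytochrome c1 (MCINX012197), the haem protein of complex III, had 469, 842 and 1685 CPM in males, against 136, 414 and 998 CPM in females (log2 fold change 1.001, SE 0.14, FDR = 2.27e-08). COX16 (MCINX007695), an assembly factor of cytochrome c oxidase, and the alpha subunit of electron transfer flavoprotein (MCINX009517), which passes electrons from fat oxidation to the chain, rose by log2 fold changes of 0.71 and 0.64. On library totals alone the log2 fold change of MCINX009517 was 0.37 with FDR = 0.0639. The succinate dehydrogenase subunit D model (MCINX005298) did not pass the filter, with 952 counts over the males and 212 over the females.

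A carrier of the inner mitochondrial membrane, described as the oxaloacetate transport protein (MCINX012429), belonged to no list and was among the 10 described genes with the lowest p. It had 12.1, 38.9 and 67.2 CPM in males, against 1.62, 12.7 and 34.6 CPM in females (log2 fold change 1.499, SE 0.17, FDR = 6.77e-11). The female with 34.6 CPM was replicate 6, and the other females ended at 30.9 CPM, below the male median.

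Other mitochondrial and protein synthesis genes moved less. The mitochondrial ribosome translates the few proteins encoded in mitochondrial DNA, and all 15 of its listed members passed the filter. In males 2 rose (13.3%, against 9.35% of all genes) and 0 fell (against 8.38%), with a median of 0.097. The 2 were L24 (MCINX001650), with a log2 fold change of 0.35, and S30 (MCINX007039), with 0.58. On library totals alone neither rise passed FDR<0.05 (FDR = 0.762 for MCINX001650 and 0.105 for MCINX007039). In the cytosolic ribosome 0 of 7 passed FDR<0.05 in either direction, against 17.7% of all genes (edgeR, and 0 at an unadjusted p under 0.05). The median was 0.0037, and 7 genes are few to set beside that share.

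The structural genes of flight muscle showed no call. Of 10 members, 8 passed the filter, and 0 rose and 0 fell (edgeR, and 0 passed an unadjusted p under 0.05). Of all genes tested 9.35% were higher and 8.38% lower, and 8 genes are few to set beside these shares. The log2 fold changes lay between -0.26 and 0.23, with a median of -0.0013. The summed level of 6 marker genes (Kettin, Muscular protein 20, Disorganized muscle protein 1, Myosin II heavy chain and a pair of Troponin C genes) was 4219, 6418 and 11839 CPM in males, against 4373, 6654 and 11408 CPM in females. All 6 were read in each of the 63 individuals. Kettin (MCINX003014), the titin-like protein of the sarcomere, had a log2 fold change of 0.091 (SE 0.08, FDR = 0.486). It became -0.21 with library totals alone, where it passed FDR<0.05 (FDR = 0.0339), and -0.21 in the 15 individuals with the largest totals. A smaller number of cells of a type and less RNA per cell cannot be told apart in whole thorax.

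Markers of germ line and reproductive tract and the hexamerins were low in both sexes. The other tissues of the thorax had no marker set here. The 13 markers of germ line and reproductive tract, among them chorion peroxidases, seminal fluid proteins and testis-specific kinases, summed to 65.7, 119 and 257 CPM in males, against 71.6, 111.3 and 206 CPM in females. Of these, 4 passed the filter, and 0 rose and 0 fell, against 9.35% and 8.38% of all genes (median log2 fold change 0.038, and 0 at an unadjusted p under 0.05). The 4 hexamerins, the storage proteins of the larval fat body, summed to 0, 1.21 and 15.4 CPM in males, against 0.566, 1.92 and 13.2 CPM in females, and none passed the filter. Their part in the other differences was not tested.

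**Figure D5:**
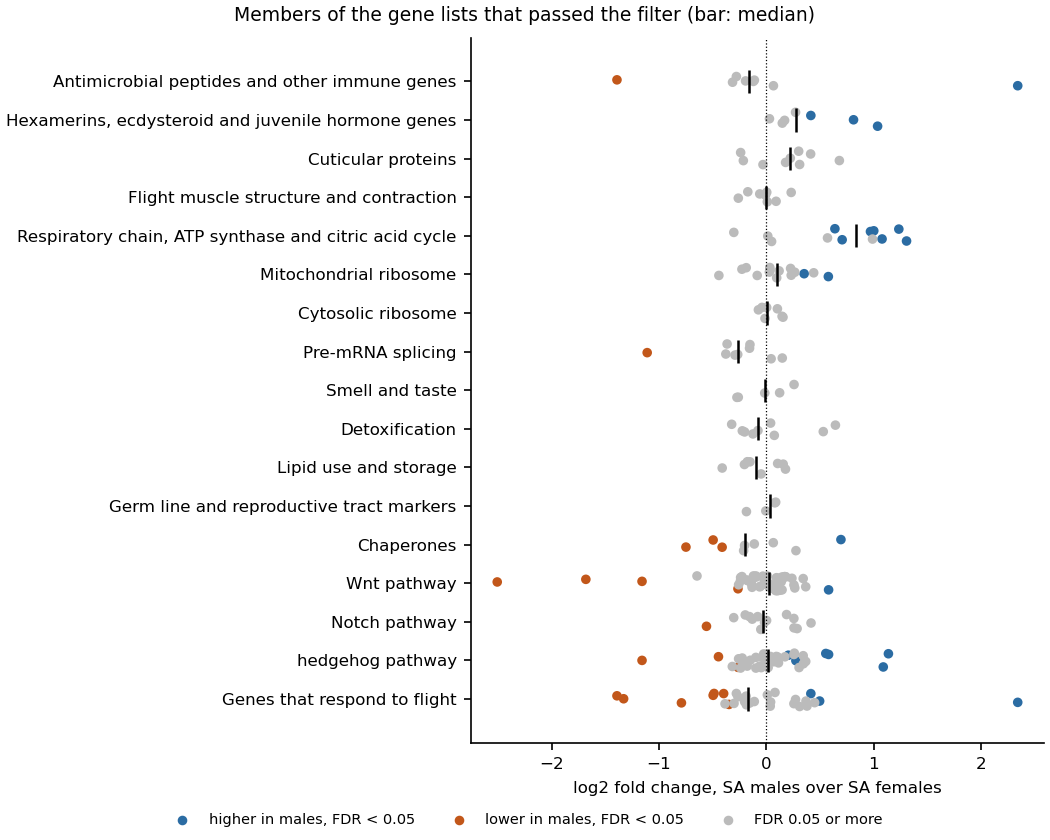
Log2 fold change of SA males over SA females (x axis) for the members of 17 gene lists that passed the filter, with 1 point per gene, coloured by call at FDR<0.05, and a bar at the median of the list. The list of the respiratory chain and ATP synthase has 7 of 12 members higher in males and a median of 0.84. The flight muscle and cytosolic ribosome lists have no call among 8 and 7 members, against 17.7% of all genes tested.

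In the list of hexamerins, ecdysteroid and juvenile hormone genes, 7 of 14 members passed the filter, 3 rose in males (42.9%, against 9.35% of all genes) and 0 fell, with a median of 0.27. The receptor of ecdysis triggering hormone (MCINX016517), which in moulting insects sets off the shedding of the old cuticle, had 8.76, 32.7 and 83.5 CPM in males, against 8.75, 18.7 and 39.8 CPM in females. Its log2 fold change was 1.04 (SE 0.16, FDR = 2.87e-07), and the female with 39.8 CPM was replicate 6. An ecdysteroid UDP-glucosyltransferase (MCINX008074), of the enzymes that inactivate moulting hormones by adding glucose, had 7.03, 37.3 and 131 CPM in males, against 6.14, 17.9 and 101 CPM in females (log2 fold change 0.81, SE 0.27, FDR = 0.0271). On library totals alone MCINX008074 was 0.48 (FDR = 0.140) and with the TMM factor as a covariate 0.86 (FDR = 0.106). Its call was also lost without a filter, after thinning and outside the 15 largest libraries. In the other populations MCINX008074 was 0.061 in AL, 0.10 in OL and -0.38 in UP, without a call. Another model with the same description, MCINX005524, had a log2 fold change of 0.17 in SA (FDR = 0.754), and was called higher in males of AL (1.19) and OL (0.86). The precursor of moult-inhibiting hormone and ion transport peptide (MCINX002763) had a log2 fold change of 0.42 (SE 0.15, FDR = 0.0422), and the call was lost in 23 of the 63 fits that left out an individual (highest FDR 0.0748, without male replicate 2) and on library totals alone (0.12, FDR = 0.561).

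Among the antimicrobial peptides and other immune genes, 8 of 15 passed the filter. There were 1 rise and 1 fall (12.5% each, against 9.35% and 8.38% of all genes), and both calls rested on a few individuals. Defensin-1 (MCINX014016) had 0.938, 6.40 and 949 CPM in males, against 0.308, 7.35 and 136 CPM in females. Its median was thus lower in males, although the log2 fold change fitted to the means was 2.34 (SE 0.61, FDR = 0.00306), and 1.71 without male replicate 23. Defensin-5 (MCINX000474) had 0, 6.57 and 203 CPM in males, against 1.73, 5.63 and 436 CPM in females, with a log2 fold change of -1.39 (SE 0.49, FDR = 0.0392) that was -2.08 without male replicate 17 and -0.70 without female replicate 10, where the call was lost (FDR = 0.319). On the scale of log2(CPM + 1), the difference of the means was 0.61 in Defensin-1 (p = 0.209) and -0.41 in Defensin-5 (p = 0.32, permutation tests, 2-sided), within the spread between individuals.

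Of the chaperones, which help proteins to fold, 9 of 10 passed the filter, 1 rose (11.1%, against 9.35% of all genes) and 3 fell (33.3%, against 8.38%) in males, with a median of -0.20. DnaJ-like protein 11 (MCINX004285), a partner of Hsp70 proteins, had 31.7, 56.8 and 128 CPM in males, against 16.4, 32.4 and 72.4 CPM in females (log2 fold change 0.70, SE 0.14, FDR = 7.33e-05). Heat shock cognate 70 (MCINX016461), the constitutive Hsp70, fell to 31.3, 77.3 and 154 CPM in males, against 59.0, 106 and 262 CPM in females (log2 fold change -0.49, SE 0.13, FDR = 0.00351). BAG2 (MCINX006138), which regulates Hsp70, and the small heat shock protein hsp21.4 (MCINX004069) fell by log2 fold changes of -0.41 and -0.75, and the call of hsp21.4 was lost without female replicate 26 (FDR = 0.0515). The sexes overlapped widely in all 4. The 3 falls lost their call with the TMM factor as a covariate (FDR = 0.274 for MCINX016461, 0.247 for MCINX006138 and 0.0834 for MCINX004069).

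Among the pre-mRNA splicing genes, 9 of 13 passed the filter, 0 rose and 1 fell (11.1%, against 8.38% of all genes), with a median of -0.27. The fall was that of LSm6 (MCINX012015), a ring protein that binds U6 RNA, with 0, 4.55 and 23.6 CPM in males, against 0.538, 9.51 and 30.9 CPM in females (log2 fold change -1.11, SE 0.27, FDR = 0.00165), and -0.30 (FDR = 0.605) with the TMM factor as a covariate. Another 4 lists had no call at all among the members that passed the filter, against 17.7% of all genes tested. These were cuticular proteins (9 of 22 passed, median 0.22), smell and taste (5 of 10, median -0.014), detoxification (9 of 18, median -0.078) and lipid use and storage (8 of 11, median -0.10). At an unadjusted p under 0.05 there were 2 genes in the detoxification list, 1 higher and 1 lower in males, and 0 in the other 3. Without the library labelled female, replicate 6, the count of calls changed in the Wnt and flight lists given below and in no other of the 17 lists.

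Wnt, Notch and hedgehog signalling are pathways that pattern growing tissues. Their lists hold models that the study matched by sequence similarity to Drosophila genes of each pathway. A listed model thus need not act in that pathway, and this was not tested here. In the Wnt list 49 of 93 members passed the filter, 1 rose (2.04%) and 4 fell (8.16%) in males, against 9.35% and 8.38% of all genes, with a median of 0.029, and 2 rose without the library labelled female, replicate 6. The rise was that of PLK4, given below with the hedgehog list. The largest fall was that of the gene described as ruvb-like 1 DNA helicase (MCINX008204), a subunit of chromatin remodelling complexes. It had 0, 16.1 and 38.9 CPM in males, against 20.99, 99.7 and 182 CPM in females, where replicate 6 was the lowest and the other females began at 37.4 CPM (log2 fold change -2.51, SE 0.18, FDR = 8.60e-19). The highest male and the lowest of these 27 females overlapped only slightly. A potassium channel of subfamily K (MCINX012128) had 0.589, 7.16 and 35.9 CPM in males, against 1.21, 18.3 and 97.3 CPM in females (log2 fold change -1.68, SE 0.34, FDR = 0.000105). A sortilin-related receptor (MCINX005560), of a family that sorts cargo between membranes, and casein kinase II (MCINX005622) had log2 fold changes of -1.16 and -0.26.

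In the hedgehog list 39 of 95 members passed the filter, 6 rose (15.4%, against 9.35% of all genes) and 3 fell (7.69%, against 8.38%) in males, with a median of 0.017. A serine/threonine kinase (MCINX001840) had 316, 1161 and 4520 CPM in males, against 233, 566 and 1816 CPM in females (log2 fold change 1.09, SE 0.22, FDR = 0.000113), and with the TMM factor as a covariate the log2 fold change was 0.65 (FDR = 0.101). Foraging (MCINX002027), the cGMP-dependent kinase known in Drosophila for its part in feeding behaviour, had 1.004, 7.43 and 23.6 CPM in males, against 0, 2.99 and 14.8 CPM in females (log2 fold change 1.14, SE 0.28, FDR = 0.00153). PKG-Ib (MCINX011043), of the same kinase family, and PLK4 (MCINX003116), which controls the copying of centrioles, had log2 fold changes of 0.55 and 0.58. On library totals alone MCINX011043 was 0.24 (FDR = 0.187), and with the TMM factor as a covariate 0.39 (FDR = 0.215). ST17A (MCINX012995) and protein kinase C theta (MCINX013002) had smaller ones of 0.28 and 0.21, which became -0.035 and -0.093 with library totals alone, and the call of MCINX013002 was lost in 3 of the fits that left out an individual. The 3 falls were those of MCINX005560 and MCINX005622, both also in the Wnt list, and of cell division protein kinase 7 (MCINX005297, -0.45), whose call was lost in 16 of the 63 fits that left out an individual (highest FDR 0.0857, without female replicate 28). In the Notch list 14 of 35 members passed the filter, 0 rose and 1 fell (7.14%, against 8.38% of all genes), with a median of -0.034. The fall was that of Suppressor of Hairless (MCINX002989), the transcription factor at the end of the pathway, with 7.34, 18.2 and 25.1 CPM in males and 11.3, 24.7 and 44.8 CPM in females (log2 fold change -0.56, SE 0.11, FDR = 7.79e-05).

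A list of 39 genes that changed after forced flight, in a separate experiment on this species, was counted as well. Of these, 30 passed the filter, 3 rose (10%, against 9.35% of all genes) and 7 fell (23.3%, against 8.38%) in SA males, with a median log2 fold change of -0.17. The rises were those of Defensin-1, of MCINX002763 and of Socs2 (MCINX002283), a suppressor of cytokine signalling with a log2 fold change of 0.50 (SE 0.17, FDR = 0.0301). The call of Socs2 was lost without male replicate 12 (FDR = 0.0573), and on library totals alone the log2 fold change of MCINX002283 was 0.19 (FDR = 0.398). In this list 4 members rose without the library labelled female, replicate 6. The falls were those of Hsc70, Defensin-5, a zinc finger protein (MCINX012608), Tenectin (MCINX005469), a translocon subunit (MCINX009508, -0.40), the ribosomal RNA methyltransferase Nep1 (MCINX001048, -0.35) and a gene without known function (MCINX007227, -0.49). The call of Nep1 was lost in 34 of the 63 fits that left out an individual (highest FDR 0.0962, without female replicate 10). The zinc finger protein had 13.1, 41.3 and 77.7 CPM in males, against 53.7, 95.2 and 252 CPM in females (log2 fold change -1.33, SE 0.13, FDR = 2.04e-12). Tenectin, an extracellular matrix protein of cuticle-lined epithelia, had 11.2, 47.4 and 112 CPM in males, against 42.8, 86.6 and 207 CPM in females (log2 fold change -0.79, SE 0.15, FDR = 3.54e-05).

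The remaining described genes with the lowest p came from varied functions. Higher in males were a leucine aminopeptidase (MCINX009942, log2 fold change 1.08), which trims peptides, an mRNA export protein (MCINX014669, 0.99), an RNA pseudouridylate synthase (MCINX015653, 0.96), the small GTPase RERG (MCINX007710, 1.12) and O-GlcNAc transferase (MCINX007875, 1.46), which adds a sugar to proteins of the nucleus and cytoplasm. O-GlcNAc transferase had 8.76, 52.6 and 103 CPM in males, against 3.61, 15.3 and 98.7 CPM in females. The female with 98.7 CPM was replicate 6, and the other females ended at 53.2 CPM.

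Lower in males were a low molecular weight tyrosine phosphatase (MCINX013094, log2 fold change -1.23), a cellular retinaldehyde-binding protein (MCINX007711, -1.06), AIP1 (MCINX007066, -0.67) and a HECT ubiquitin ligase similar to HERC3 (MCINX001419, -2.34). The tyrosine phosphatase had 10.6, 39.8 and 112 CPM in males, against 29.8, 101 and 195 CPM in females, and the lowest female was replicate 6. The HECT ligase had medians that lay close together, 5.39 CPM in males and 8.03 CPM in females, and its fold change followed from the upper end, where the highest male had 19.1 CPM and the highest female 293 CPM. Without female replicate 23, its log2 fold change was -1.85 (FDR = 0.000262).

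The largest fold changes higher in males at an average log2 CPM above 1 were those of MCINX015562 and MCINX002861, both without a description. That of MCINX015562 was carried by few individuals. MCINX015562 had 0, 8.66 and 1626 CPM in males, against 0.538, 3.15 and 82.8 CPM in females (log2 fold change 3.23, SE 0.68, FDR = 0.000253), and 2.41 without male replicate 14. MCINX002861 had 0.938, 9.57 and 276 CPM in males, against 0, 1.895 and 52.2 CPM in females (log2 fold change 2.57, SE 0.50, FDR = 7.01e-05). It was 3.37 without female replicate 5. On the log2(CPM + 1) scale the difference of the means was 1.08 in MCINX015562 (p = 0.0385) and 1.80 in MCINX002861 (p = 1e-05, permutation tests, 2-sided).

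Several genes were included because the study names them in its landscape contrast, and of these Hif-1a, Nicastrin and the Patched-related gene did not pass FDR<0.05 between the sexes. Hif-1a (MCINX007807), the oxygen-responsive transcription factor, had a log2 fold change of 0.30 (SE 0.25, FDR = 0.467), Nicastrin (MCINX013215), of the complex that cuts Notch, 0.26 (SE 0.18, FDR = 0.350), and the Patched-related gene (MCINX011439) -0.070 (SE 0.25, FDR = 0.901). In the 3 genes the sign changed under at least 1 alternative. Pgi (MCINX009374), the glycolytic enzyme phosphoglucose isomerase known for its variants in this butterfly, had 2.15, 10.2 and 27.4 CPM in males, against 0.901, 4.83 and 22.3 CPM in females (log2 fold change 0.72, SE 0.22, FDR = 0.0143). On library totals alone MCINX009374 was 0.45 (FDR = 0.0948), and with the TMM factor as a covariate 0.79 (FDR = 0.0532). Chitinase-like 3 (MCINX013513) did not pass the filter: 3684 of its 9948 counts in males and 2620 of its 2803 counts in females came from 1 individual in each sex.

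The sex difference was then set beside that in the other populations, which share no individual with SA. The study left out a few OL and UP individuals as genetic outliers, and since the labels do not mark them, they were kept in OL and UP here. Males and females differed in 548 of 5855 genes (9.36%) in AL (26 males, 23 females), 960 of 6664 (14.4%) in OL (27 males, 15 females) and 49 of 6828 (0.718%) in UP (9 males, 11 females). The calls were 5.57% higher and 3.79% lower in males of all genes tested in AL, 7.31% higher and 7.1% lower in OL, and 0.322% higher and 0.395% lower in UP. Of the genes higher in SA males and tested there, 471 of 530 (88.9%) in AL, 509 of 538 (94.6%) in OL and 482 of 537 (89.8%) in UP had a log2 fold change above 0, against 46.9%, 48.3% and 52.5% of all genes tested both there and in SA. Of the genes lower in SA males, 439 of 472 (93.0%) in AL, 455 of 484 (94.01%) in OL and 416 of 486 (85.6%) in UP were below 0, against 53.1%, 51.7% and 47.5% of all genes. A call in the opposite direction was made for 1 gene, MCINX000061, in OL, and its call in SA (log2 fold change -0.58, FDR = 0.0471) was lost in 35 of the 63 fits that left out an individual.

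Across all 4 populations 785 of 1001 genes called in SA had the same direction (78.4%), and 34 were called in each, 18 higher and 16 lower in males. The same share over all genes tested was not computed, and the 34 could not exceed the 49 genes called in UP. Those lower included MCINX009163, MCINX012439, MCINX012856 and the run around MCINX006615, and those higher included MCINX015264. In MCINX012439 the log2 fold change was -5.33 in SA, -4.25 in AL, -3.82 in OL and -3.54 in UP. In MCINX015264 it was 2.18 in SA, 1.86 in AL, 2.22 in OL and 1.58 in UP.

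Of the oxidative phosphorylation genes, the gamma chain of ATP synthase (MCINX015004) was 1.23 in SA, 1.29 in AL, 1.47 in OL and 1.18 in UP on the log2 scale, past FDR<0.05 in all but UP (FDR = 0.137). NADH dehydrogenase alpha subunit 6 (MCINX000594) was 1.31 in SA, 0.30 in AL, 1.60 in OL and -0.34 in UP, and was called in SA and OL. A test of the interaction set SA against the mean of the other 3, and so did not test differences among those 3. It gave 0.79 (SE 0.30, FDR = 0.492) for MCINX000594 and -0.081 (SE 0.22, FDR = 0.986) for MCINX015004. This test was past FDR<0.05 in 5 of 8976 genes (0.0557%). The 5 were MCINX001419, the HECT ligase, with an interaction of -2.50 on the log2 scale (SE 0.41, FDR = 7.36e-05), and MCINX000061, MCINX005760, MCINX008630 and MCINX014912. None was a listed gene of oxidative phosphorylation.

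Some models were read in 1 sex only. Of 15698 models with at least 3 counts over the SA libraries, 89 (0.567%) had reads in males only and 132 (0.841%) in females only. These reads were few: none of the models had reads in more than 9 of the 35 males or 12 of the 28 females. Those with most counts were MCINX009588, with 53 counts over 5 females, and MCINX016118, with 42 counts over 12 females, and both had 0 counts in males. They did not pass the filter and carry no test, and they were named after their values were seen.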

How the data were processed

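Thorax RNA of 174 individuals was extracted with TRIzol by the authors and made into strand-specific libraries anchored at the polyA tail, which were sequenced on HiSeq2000 and HiScanSQ instruments and trimmed for quality. The submitters' processing notes name CASAVA 1.7, TopHat2 2.0.5 and edgeR. The deposited values used here are raw counts, which the authors obtained per individual within 16667 gene models; the counting tool is not given in the sources used here. The authors' table of normalized counts was not used. Molecular identifiers were not used for counting, and depth limits rare genes. Model identifiers are written as in the study (MCINX and 6 digits), 1533 of the 16667 models have a description in its supplementary tables, and 470 had no read in SA.

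The main test was run with edgeR 4.0.16 in R 4.3.3 (TMM, filterByExpr with a minimum count of 10, glmQLFit and glmQLFTest, Benjamini-Hochberg FDR<0.05). Log2 fold changes are males over females, SE is the log2 fold change divided by the square root of F, and CPM uses the TMM-scaled library. The interaction used 8 group means over all 174 individuals. Permutation tests used 100000 permutations of the sex labels. Chromosomes, positions and sequences were not analysed here. The fit of the SA sex difference was run on simulated counts with known changes, equal in number upward and downward. The interaction fit was not run on simulated counts.

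Named genes were, in each direction, the 10 described genes with the lowest p and the 2 with the largest fold change (FDR<0.05, average log2 CPM above 1), genes that the study names, members of 17 lists at FDR<0.05, up to 3 interaction genes per direction and genes without overlap of the sexes; others are marked as chosen later. The members and lists were chosen with earlier results of these data known. Lists were read from the study's descriptions and pathway tables, which the study chose in part from these libraries.

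As alternatives, DESeq2 1.42.0, limma-voom (limma 3.58.1), size factors by the RLE method, edgeR's likelihood ratio test on all models, other filters, thinned counts, covariates (total count, TMM factor, share of the 10 most abundant genes, first digit of the sample number), subsets of individuals and FDR<0.01 were used. Library totals alone, the lists without the library that goes against its label, and the interaction without the highest individual were added after seeing the data.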

Additional observations from a re-analysis of the deposited data

Results flagged for a closer look

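The sex difference in SA differed from the mean sex difference in AL, OL and UP in 5 of 8976 genes, by the edgeR test of the interaction with Benjamini-Hochberg adjustment. In MCINX001419, the HECT ligase, the interaction was -2.50 on the log2 scale (FDR = 7.36e-05), with medians of 4.69 CPM in SA males and 7.03 CPM in SA females and a highest SA female at 256 CPM, and it was -2.01 (FDR = 0.00266) without SA female replicate 23. In MCINX000061 it was -2.12 (FDR = 0.000263), and -1.06 (FDR = 0.266) without UP male replicate 3, whose 271 CPM was far above the UP male median of 4.15 CPM. In MCINX005760 it was 2.75 (FDR = 0.0149), and 2.30 (FDR = 0.0843) without SA male replicate 17. In MCINX008630 it was 3.90 (FDR = 0.0149), and 0.45 (FDR = 0.974) without SA male replicate 26, which had 470 CPM against an SA male median of 0.202 CPM. In MCINX014912, of the run from MCINX014910 to MCINX014914, it was -1.20 (FDR = 0.0149), and -1.02 (FDR = 0.0764) without SA female replicate 13. In this gene the medians were 71.4 CPM in SA males and 284 CPM in SA females, 49.3 in AL males and 103 in AL females, 60.6 in OL males and 190 in OL females, and 89.8 in UP males and 142 in UP females. The call thus held without its highest individual in MCINX001419 and was lost in the other 4.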

How the results depend on the processing

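Against 1035 genes with a sex difference in SA, the count was 2659 (272 higher, 2387 lower in males) with library totals alone, 680 (306 and 374) among the 2144 genes with at least 10 counts in every individual, 350 (222 and 128) among the 3267 genes left after thinning to the smallest total, 127 (81 and 46) in the 15 individuals with the largest totals and 638 (377 and 261) at FDR<0.01. Leaving out each individual in turn gave 975 to 1096. It stayed within 1.5 times of 1035 under the other 12 alternatives, from 791 (447 and 344) with the TMM factor as a covariate to 1188 without a filter. The ranges of the sexes did not overlap in 6 genes without the library labelled female, replicate 6.

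The interaction, with 5 genes, gave 27 without a filter, 14 with DESeq2, 8 with the total count as a covariate, 2 among genes with at least 10 counts in every individual (MCINX014912 and MCINX002823), 1 after thinning (MCINX005075), 2 at FDR<0.01 (MCINX001419 and MCINX000061) and 0 with limma-voom, where 533 genes had an unadjusted p under 0.05.

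The sign changed in MCINX002861 (-0.13), MCINX000061 (0.13), MCINX014016 (-0.14), MCINX011439 (0.025) and MCINX003014 (-0.21) in the 15 largest libraries, in MCINX013215 (-0.063), MCINX003014 (-0.21), MCINX012995 (-0.035) and MCINX013002 (-0.093) with library totals alone, in MCINX003116 (-0.10) after thinning, in MCINX007807 (-0.036) on the log2(CPM + 1) scale and in MCINX011439 when single individuals were left out (-0.12 to 0.0088, highest without SA female replicate 16). For 58 named genes with a call, 838 of 998 values under alternatives kept direction and call, 154 kept direction only and 6 changed direction; when single individuals were left out, 3539 of 3654 kept both and 115 kept direction only. The cause of these changes was not tested, and some of the refits also held smaller numbers of genes, counts or individuals. No paired analysis was made, because the labels used here do not name the family of an individual.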
